A study of Rattus norvegicus with 2 samples.

Results

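The genes described here are 8 genes of the mucous coat and of the antimicrobial defence of the urinary tract: Muc1, Muc4, Muc20, Wfdc2, Slpi, Pigr, Psca and Ltf. They were named by symbol, and an entry was taken where the rat gene ID of that symbol stands in the table of gene expression. Of the 8 genes, 7 had such an entry, among 16484 gene entries of that kind and 113011 features in all. Muc4 was not analysed here. Of the 7, 6 had an FPKM (fragments per kilobase of a transcript after scaling for library size) of 1 or more in one library or the other, and Ltf had not.

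RNA was sequenced from urine of Sprague Dawley rats in 2 libraries. The UUO library comes from rats whose right ureter was ligated (unilateral ureteral obstruction, which leads to fibrosis of the kidney), and the WT library from sham rats that had the surgery without ligation. The labels give the age as post natal day 56 for both, and both were studied 2 weeks after surgery, with urine drawn from the ureter by catheter. The number of rats behind a library is not stated. Each group is a single library. No difference therefore has a replicate check, no test between the groups was possible, and each value describes these 2 libraries. The columns of the table are named by abbreviations, and were read as UUO and WT from the wording of the series title and the study's own urine lists. Every direction rests on that reading.

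Mucins are long proteins covered with sugar chains. Membrane mucins such as Muc1 form a barrier on the surface of epithelial cells, and soluble proteins secreted into the same fluid bind microbes, withhold iron from them or restrain the proteases of white blood cells. In the urinary tract these products come from the urothelium, from tubule cells and, in infection or injury, from neutrophils.

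The 6 measured genes did not differ in one direction. Slpi, Muc20 and Wfdc2 were higher in UUO urine by at least 2-fold (a difference of 1 or more in log2(FPKM + 1)), Psca was lower, and Pigr and Muc1 stayed within 2-fold. Over the 9853 gene entries that reached an FPKM of 1 in one of the libraries, 25.7% were at least 2-fold higher and 36.5% at least 2-fold lower in UUO urine. The median difference of the 6 genes was 0.50 on the log2 scale, and that of the 9853 entries was -0.51. Slpi and Muc20 passed the limit on FPKM only through the UUO library, so that a difference was fixed by their selection and the counts carry no weight of their own. After scaling by the median ratio of the 2 libraries the shares over all entries were 39.8% higher and 15.6% lower, while the same numbers of the 6 genes, 3 and 1, were higher and lower.

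**Figure D1:**
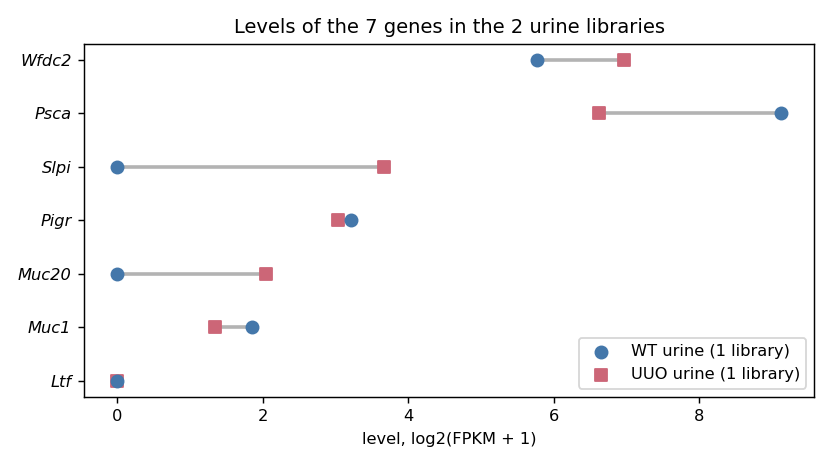
Level of each of the 7 genes with an entry, as log2(FPKM + 1) on the horizontal axis, in WT urine (circles) and UUO urine (squares), 1 library each, with a grey line joining the pair. Psca has its circle far to the right of its square, Wfdc2, Slpi and Muc20 have the square to the right, and Ltf stands at 0 in both.

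The depth behind these values was read from the steps in FPKM of assembled features. By this reading 0.542 FPKM in the WT library and 0.496 FPKM in the UUO library equal 1 fragment on a feature of 1000 bp. Thus 3 fragments, the limit that a count of 0 allows, equal an FPKM of 1.63 and 1.49. These limits cover counting error only. An FPKM near 2 or 3 thus rests on few fragments for a transcript of that length.

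Psca encodes a small protein of the Ly6 family that is held on the cell surface by a lipid anchor and is known from bladder and prostate epithelium. Its entry (gene ID 680210) lies at chr7:115995491-115997258 in rn5, the build named in the submitters' processing notes. Psca had an FPKM of 557 in WT urine and 97.6 in UUO urine. The WT value was 5.71 times the UUO value, a difference of -2.50 in log2(FPKM + 1). In WT urine it ranked 55 among 7793 gene entries with an FPKM of at least 1, and in UUO urine 244 among 9278. It was thus among the abundant transcripts of both libraries, and it held 89.6% of the summed FPKM of the 7 genes in WT urine and 39.9% in UUO urine.

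A ratio of genes within a library does not depend on how the libraries were scaled. Psca stood at 10.4 times the FPKM of Wfdc2 in WT urine and at 0.790 times in UUO urine, a change of 13.1-fold. Against the summed FPKM of the uroplakin genes Upk1a, Upk1b, Upk2 and Upk3a, which encode the membrane plaques of the urothelium, Psca came to 71.5% in WT urine and 9.32% in UUO urine. The uroplakin sum itself was 779 in WT urine and 1047 in UUO urine, opposite in direction to Psca. Of the 4 genes Upk1b alone was lower in UUO urine, at 136 against 216.

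One marker of the male accessory glands also differed. Andpro, an androgen-regulated gene of the male accessory glands, had an FPKM of 792 in WT urine and is listed at 0 in UUO urine. Its entry spans chr3:149833587-150507740, and entries that share a merged locus divide their reads. The other 4 markers of these glands had an FPKM under 1 in both libraries, and 3 of them, Pbsn, Svs4 and Svs6, are listed at 0 in both. The summed FPKM of the 5 markers was 792 in WT urine and 0.905 in UUO urine. By the study's methods the urine was drawn from the ureter. The part of gland cells in the Psca value was not tested, and in urine fewer cells of a type and less RNA per cell cannot be told apart.

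Wfdc2 and Slpi encode small secreted proteins with the whey acidic protein (WAP) fold. Slpi inhibits neutrophil elastase and shields epithelium from it, and Wfdc2 is a product of many secretory epithelia, kidney tubules included. Wfdc2 (gene ID 286888, chr3:167197727-167229659) had an FPKM of 53.7 in WT urine and 123.6 in UUO urine. The UUO value was 2.30 times the WT value, a difference of 1.19 in log2(FPKM + 1). Its rank moved from 1324 in WT to 181 in UUO urine. Wfdc2 was the most abundant of the 7 genes in UUO urine, with 50.5% of their summed FPKM, against 8.64% in WT urine.

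Slpi (gene ID 84386, chr3:166981036-166983313) is listed at 0 in WT urine and had an FPKM of 11.7 in UUO urine, which corresponds to 23.7 fragments on 1000 bp. It ranked 3249 among the 9278 gene entries with an FPKM of at least 1 in UUO urine. A value of 0 can be a failed estimate, so no fold is given. Among the 9853 entries, 19.3% were likewise listed at 0 in WT urine with an FPKM of at least 1 in UUO urine. The entries Slpi-ps1 and Slpi-ps2, pseudogene copies in the same region, are listed at 0 in both libraries, and reads of near-identical copies could be divided among such entries.

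Slpi and Wfdc2 lie 214 kb apart on chromosome 3, in a cluster of WAP and seminal vesicle genes. The window from Wfdc5 to Wfdc3 (643 kb, 26 gene entries) was chosen after its values were seen. Of the 26 entries, 15 are listed at 0 in both libraries, 6 had an FPKM of at least 1 in WT urine and 8 in UUO urine. Over all 16484 gene entries, 4294 are listed at 0 in both libraries. An FPKM of at least 1 was reached by 7793 of them in WT urine, 9278 in UUO urine and 9853 in either. Wfdc3, 152 kb from Wfdc2, was at 224 in WT urine and 3.66 in UUO urine, and the WT value was 61.2 times the UUO value. Wfdc10a (5.97) and Wfdc5 (1.88) had an FPKM above 0 in UUO urine alone. Sdc4, a syndecan of the cell surface that lies between Slpi and Wfdc2, was at 139 in WT urine and 147 in UUO urine. Of the 26 entries, 5 reached an FPKM of 1 in both libraries.

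**Figure D2:**
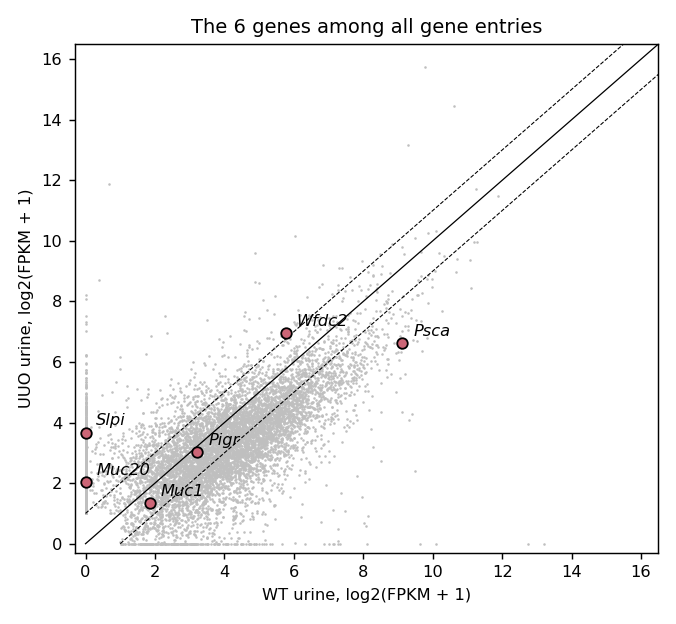
Level of each of 9853 gene entries that reached an FPKM of 1 (grey points), WT urine on the horizontal and UUO urine on the vertical axis, both as log2(FPKM + 1), with the 6 measured genes in red. The solid line marks equal values and the dashed lines a difference of 1. Wfdc2 and Psca sit in the upper range of both libraries on opposite sides of the lines, Slpi and Muc20 sit on the vertical axis at 0 in WT urine, and Pigr and Muc1 lie between the dashed lines.

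Muc1 and Muc20 are membrane mucins, and Muc20 is known from kidney epithelium. Muc1 (gene ID 24571, chr2:207957654-207962400) had an FPKM of 2.61 in WT urine and 1.54 in UUO urine, a difference of -0.51 in log2(FPKM + 1). These levels correspond to 4.81 and 3.10 fragments on 1000 bp, so a difference of this size was not detectable at this depth. The difference of Muc1 stood at percentile 50.1 of the 9853 entries, and it turned to 0.10 after scaling by the median ratio. Muc20 (gene ID 303886, chr11:74307692-74321027) is listed at 0 in WT urine and had an FPKM of 3.12 in UUO urine, or 6.30 fragments on 1000 bp. Muc20 thus lay only a little above the 1.63 that a count of 0 allows in WT urine for that length. The locus also holds 2 database entries of noncoding RNA, with 3.27 FPKM together in UUO urine and 0 in WT urine.

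Pigr, the receptor that carries IgA through epithelial cells and is shed with it as secretory component, differed little. Pigr (gene ID 25046, chr13:52652956-52680757) had an FPKM of 8.30 in WT urine and 7.20 in UUO urine, a difference of -0.18 in log2(FPKM + 1). After scaling by the median ratio the difference was 0.63, so that the direction depended on the scaling. Relative to Muc1, Pigr was 3.19 times as high in WT urine and 4.68 times in UUO urine. Ltf (gene ID 301034, chr8:118632729-118655575) encodes lactoferrin, an iron-binding protein of neutrophil granules and glandular secretions. It is listed at 0 in both libraries.

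By level, the order in WT urine was Psca, Wfdc2, Pigr and Muc1, with Muc20, Slpi and Ltf at 0. In UUO urine it was Wfdc2, Psca, Slpi, Pigr, Muc20, Muc1 and Ltf. Without replicates, neighbours in these orders cannot be separated by their spread. In UUO urine Psca was at 0.790 times the FPKM of Wfdc2, and the levels of Muc20 and Muc1 there correspond to only 6.30 and 3.10 fragments on 1000 bp. The Psca value moved the sum of the 7 genes, which was 622 in WT urine and 245 in UUO urine.

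Of the entries outside the gene lists, those nearest to the members over the 2 log2(FPKM + 1) values were Marchf2 for Wfdc2 (57.9 in WT urine and 120 in UUO urine) and Prelid1 for Psca (542 and 86.6). Tspan15 was nearest to Slpi (0 and 11.8), Ten1 to Muc20 (0 and 3.12), Cpsf7 to Pigr (8.16 and 7.40) and Mcm5 to Muc1 (2.56 and 1.54). With only 2 libraries, many genes share such a pair of values.

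**Figure D3:**
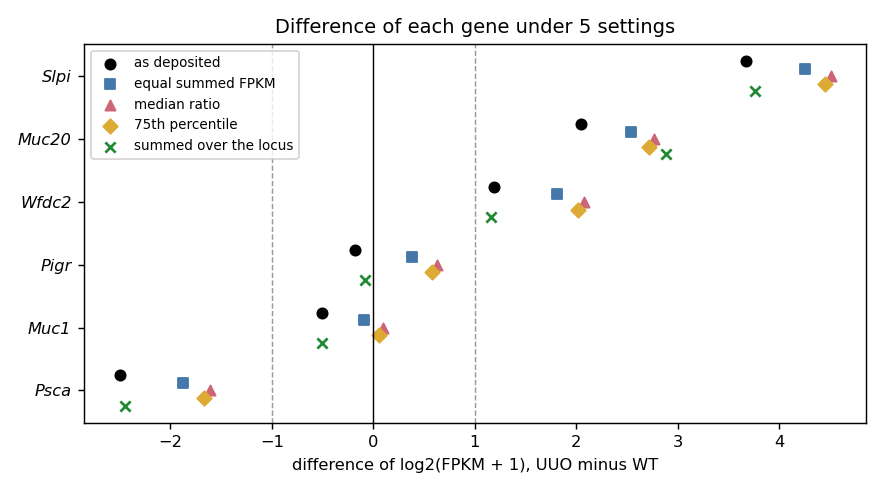
Difference of log2(FPKM + 1), UUO minus WT, of the 6 measured genes as deposited, under 3 scalings of the libraries and with FPKM summed over all entries at the locus. Slpi, Muc20 and Wfdc2 stay to the right of the dashed line at 1 and Psca to the left of that at -1 under all 5 settings, while Pigr and Muc1 move across 0. The 3 scalings multiply UUO values by factors above 1, so they can only move a gene to the right.

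The noncoding entries that overlap the 7 genes were above 0 more often in UUO urine, as they were over the whole table. Of 28 noncoding database entries at these loci, 3 were above 0 in WT urine and 20 in UUO urine. Over the whole table, 7094 of the 32269 NONRATG entries of that database were above 0 in WT urine and 24613 (76.3%) in UUO urine, beside 1 and 9 of the 11 NONRATG entries at these loci. Of the 58112 NONRATT entries, 11613 were above 0 in WT urine and 37192 (64.0%) in UUO urine, beside 2 and 11 of the 17 at these loci. The entries above 0 in UUO urine had a median FPKM of 0.406, and the greatest was 2.77. At Ltf the 2 database entries summed to 0.415 in UUO urine. Summed over all entries, the FPKM of the Slpi locus was 12.6 and that of the Psca locus 101 in UUO urine, close to the gene entries alone.

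Start-site sequence was at hand for 6 of the 8 genes in RefSeq (GRCr8 assembly). Slpi and Psca had no entry. The sequences of Wfdc2 and Muc20 are shown because these are the 2 genes at least 2-fold higher in UUO urine for which one was held. Each runs over the 250 bases before the annotated start, 5′ to 3′ along the gene, with matches of 4 motifs in capitals. The motifs, searched on both strands, were TATAAA for the TATA box, CAGACA for the Smad3 motif that the study searched for, TGANTCA for AP-1 and GGAAG for the core bound by ETS factors. In the windows shown no match overlapped another motif. Wfdc2 lies there on chr3:173706225-173706474 and Muc20 on chr11:81492641-81492890, both on the plus strand.
Wfdc2: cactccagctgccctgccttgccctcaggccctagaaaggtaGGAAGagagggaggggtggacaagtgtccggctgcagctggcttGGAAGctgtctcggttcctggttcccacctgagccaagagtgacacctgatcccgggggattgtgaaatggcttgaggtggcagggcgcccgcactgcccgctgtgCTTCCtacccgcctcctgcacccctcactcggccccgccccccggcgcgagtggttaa
Muc20: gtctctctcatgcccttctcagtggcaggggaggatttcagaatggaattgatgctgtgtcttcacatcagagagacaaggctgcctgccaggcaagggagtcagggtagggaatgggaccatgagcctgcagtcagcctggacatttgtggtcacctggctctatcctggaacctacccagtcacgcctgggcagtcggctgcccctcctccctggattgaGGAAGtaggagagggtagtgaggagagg

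The GGAAG motif was found 3 times in the Wfdc2 window and once in that of Muc20, and 63.3% of 33469 promoters hold it. The other 3 motifs are in neither window. Of all promoters 17.2% hold the Smad3 letters, 6.34% those of AP-1 and 12.9% those of the TATA box. Of the 6 genes with a sequence, only Muc1 holds a TATA box. Elf3 and Spdef, ETS factors of epithelium, were at 128 and 115 in WT and at 173 and 14.9 in UUO urine. A match is a description of letters and not a binding site.

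The wider set of mucin and defence genes comprised 79 genes in 7 lists, of which 66 had an entry and 38 reached an FPKM of 1 in one of the libraries. Of these 38, 21 were at least 2-fold higher and 7 at least 2-fold lower in UUO urine, beside 25.7% higher and 36.5% lower over all entries (39.8% and 15.6% after scaling by the median ratio). Their median difference was 1.45 on the log2 scale against -0.51 over all entries. Of the 38, 13 are listed at 0 in WT urine, which fixes their direction.

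The antimicrobial proteins held 7 of the higher genes and 0 of the lower, among 10 measured, beside 25.7% and 36.5% over all entries. Galectin-3 (Lgals3), which binds the sugars of mucins, was the most abundant, with an FPKM of 153 in WT urine and 374 in UUO urine. The beta-defensin Defb1 was at 15.2 and 53.2 and the lysozyme gene Lyz2 at 7.55 and 26.5. The trefoil factor Tff3, which is secreted together with mucins, was at 37.6 and 58.5. Uromodulin (Umod), made by the thick ascending limb and the most abundant protein of normal urine, was at 30.1 and 26.3. The lipocalin Lcn2 (8.63) and the cathelicidin Camp (9.81) had an FPKM above 0 in UUO urine alone. Of the 7 higher genes, 4 are listed at 0 in WT urine, which fixes their direction as it does that of Slpi. Umod, Tff3 and Rnase4 were within 2-fold.

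The enzymes that attach and extend mucin sugars gave 5 higher and 2 lower of 10, beside 25.7% and 36.5% over all entries, and 4 of the 10 are listed at 0 in WT urine. St3gal1 (14.4) and C1galt1 (11.1), which extend and cap the first sugar, are listed at 0 in WT urine, while Galnt2, which attaches that sugar, was at 8.12 in WT urine and 14.3 in UUO urine. Galnt7 was lower, at 10.4 in WT urine and 2.37 in UUO urine. Of the 12 other mucins only 3 had an entry, and only Cd164, a small sialomucin, reached an FPKM of 1. It was at 26.1 in WT urine and 26.4 in UUO urine, while Muc15 was listed at 0 and 0.133. Muc20 was the only mucin with an entry that passed the 2-fold limit.

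Of the partners of Pigr, the IgG receptor Fcgrt was at 3.32 in WT urine and 21.9 in UUO urine. Mzb1, a plasma cell gene, is listed at 0 in both. Among the relatives of Psca, the urokinase receptor Plaur (43.6 in UUO urine) is listed at 0 in WT urine, and Cd59, which shields cells from complement, was at 15.3 and 45.8. Lypd3 was at 9.39 and 8.66. Ly6e was at 6.24 in WT urine and at about 0 in UUO urine. It was the only one of the 5 measured genes of this list lower by at least 2-fold, beside 36.5% over all entries. Of the 5, 3 were at least 2-fold higher, beside 25.7% over all entries. Among these, Plaur and Lypd2 (3.32 in UUO urine) are listed at 0 in WT urine, which fixes their direction. Outside the list but near Psca on chromosome 7, Lynx1 was also lower, at 3.57 in WT urine and 0.263 in UUO urine. There Ly6i (4.82 and 8.04) and Ly6al (0 and 2.56) had the greater value in UUO urine. Among receptors and inducers, 3 were higher and 3 lower of 8, beside 25.7% and 36.5% over all entries. Stat3 was at 74.5 in WT urine and 21.0 in UUO urine, Tlr4 at 3.31 and 0.141, and Il17ra, the receptor of the defence cytokine interleukin-17, at 3.68 and 12.1. The flagellin receptor Tlr5 (2.11 in UUO urine) is listed at 0 in WT urine.

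**Figure D4:**
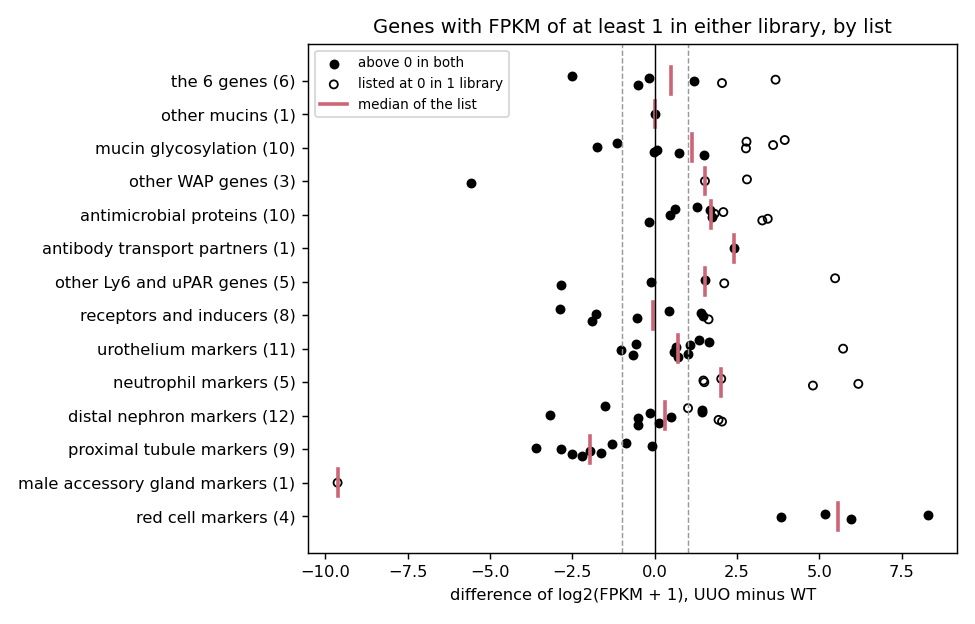
Difference of log2(FPKM + 1), UUO minus WT, of every gene that reached an FPKM of 1, by list, with the number of genes in brackets. Filled points were above 0 in both libraries, open points are listed at 0 in 1 of them, and the red bar is the median. Antimicrobial proteins lie mostly to the right, proximal tubule markers to the left, and the 6 genes on both sides of 0. The neutrophil markers all lie to the right, which their 0 in WT urine fixes, as it does for 4 of the antimicrobial proteins.

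Markers of the cells that could shed these transcripts moved as well. All 12 neutrophil markers are listed at 0 in WT urine, as are 8460 of the 16484 gene entries. Of the 12, 5 had an FPKM of at least 1 in UUO urine. These 5 passed the limit on FPKM only through the UUO library, which fixes their direction. Among the 9853 entries, 19.3% were likewise at 0 in WT urine and at 1 or more in UUO urine. The summed FPKM of the 12 markers was 106 in UUO urine. S100a9 (71.7) and S100a8 (27.0) made up most of it. The granule genes Mpo, Elane, Ngp and Ctsg, like Ltf, are listed at 0 in both libraries, while the granule proteases Mmp8 (1.84) and Mmp9 (1.79) had a low FPKM in UUO urine, below that of Lcn2 and Camp. Of 11 urothelium markers, all were measured, 5 were higher and 1 lower (25.7% and 36.5% over all entries), and their sum was 1593 in WT urine and 2561 in UUO urine, led by Krt19 (357 and 752) and Krt7 (368 and 579). Of 12 distal nephron markers, 5 were higher and 2 lower (25.7% and 36.5% over all entries), with a median difference of 0.32 on the log2 scale. Among them 3 are listed at 0 in WT urine, which fixes their direction. The summed FPKM of the 12 was 300.0 in WT urine and 276 in UUO urine. Of the proximal tubule markers 7 of 9 were lower, beside the 36.5% over all entries. Aqp3 (85.1 and 121) and Atp6v1b1 (90.1 and 30.7) had the highest WT levels among the distal nephron markers, and Ggt1, of the proximal tubule, was at 61.2 in WT urine and 24.3 in UUO urine. Red cell markers, led by Hbb and Hba-a1, held 0.727% of the FPKM of gene entries in WT urine but 28.6% in UUO urine, which bears on every FPKM level of the UUO library. The part of these cells in the levels of Slpi, Wfdc2 and Muc20 was not tested.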

How the data were processed

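Total RNA of urine from 2 groups was sequenced by the authors, 1 library each. Per the study's methods and the submitters' processing notes, rRNA was removed, strand-specific libraries were prepared (both described for kidney), and read pairs were aligned with TopHat2 2.0.9 (Bowtie2 2.0.6) to rn5, assembled with Cufflinks 2.1.1 and Scripture, and compared with Cuffdiff 2.1.1. The deposited values are FPKM, 1 per feature and library. The total used for scaling is not given. Columns with the authors' fold changes, test statistics, p-values and q-values were not used.

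Gene IDs were paired with symbols through a RefSeq table of GRCr8 (16329 of 16484 matched). Coordinates are those of the deposited table, where overlapping entries share 1 merged locus and their reads are divided. Differences are log2(FPKM + 1), UUO minus WT, which understates the change of low genes. They were counted at 1 or more in size among entries with an FPKM of at least 1 in either library. No test or p-value was computed. Depth was fitted from assembled features that share their locus with no other entry (400 to 1200 bp), as whole fragments with 1 total and 1 length offset per library. The values within 0.1 of a whole count were 93.5% of 186 in WT and 99.3% of 3530 in UUO, for totals of 2116000 and 2448000 fragments. These fitted totals lie well below the read numbers that the study gives for its samples. The reason for that gap was not tested, and the fragment counts rest on the fit. Calls and the depth fit were tested on simulated data. Alternatives were a pseudocount of 0.1, 3 scalings, other limits and sums over loci. All members are named, and of each list the 2 highest genes and those with the greatest difference in each direction, with others chosen after their values were seen. The members and lists were chosen with earlier results of these data known. Python 3.11.15, numpy 2.4.6 and pandas 2.3.3 were used.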

Additional observations from a re-analysis of the deposited data

How the results depend on the processing

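No paired analysis was possible because no group has replicate libraries, and for the same reason no library could be left out. The numbers of the 6 genes at least 2-fold higher (3) and lower (1) stayed within 1.5 times under every alternative tried. A 4-fold limit and an FPKM of at least 5 each gave 2 higher and 1 lower. The shares over all entries moved as well. They were 10.7% higher and 12.0% lower with the 4-fold limit, and 14.0% and 44.8% with an FPKM of at least 5. Psca, Wfdc2, Slpi and Muc20 stayed past 1 in the same direction under each pseudocount, scaling and locus sum. The scalings multiplied UUO values by 1.86 (median ratio), 1.54 (equal summed FPKM) and 1.79 (75th percentile). Factors above 1 can only raise a difference, so of these genes the scalings could have moved only Psca towards 0. Slpi and Muc20, at 0 in WT urine, could not change direction under any factor or pseudocount. The median difference of the 6 genes passed 1 by the median ratio (1.35), with equal summed FPKM (1.10) and with a shared 75th percentile (1.30), each of which multiplies UUO values by 1 factor. Muc1 changed sign by the median ratio (0.10) and the 75th percentile (0.057), and Pigr after all 3 scalings (0.38, 0.63 and 0.58). Without a filter the median was 0, the value of Ltf, since Ltf then entered the count, and the median of the wider set was 0.13. Summed over its locus, Ltf reached 0.50. A 4-fold limit left 11 higher and 3 lower of the 38 genes in the wider set, beside 10.7% and 12.0% over all entries. The median over all entries was 0.15, 0.46 and 0.39 after the 3 scalings. Depth limits Muc1 and Muc20 most, at under 7 fragments on 1000 bp.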
